A study of Mus musculus with 18 samples.

Results

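Transcripts of 10 neuropeptide precursor genes (Cck, Sst, Penk, Pdyn, Tac1, Npy, Vip, Cartpt, Crh and Nts) were examined in mouse substantia nigra. They were chosen by gene symbol, and all 10 were found among the 55270 genes of the deposited table. Polyadenylated RNA had been sequenced from 18 libraries, 6 in each of 3 groups, and the study design gives 6 mice per group. The control group was labelled intact and wild type. The AAV-GFP group carried an adeno-associated virus (AAV) expressing green fluorescent protein, and the AAV-SIRT3 group carried an AAV expressing SIRT3, a mitochondrial deacetylase. All tissue came from mice aged 3 months, about a month after the virus in the groups that received it. The serotype, promoter, dose and injection route of the vectors, and the sex of the mice, are not given in the sources used here. Values are read counts divided by a size factor per library (normalised reads), and 47182529 to 64728587 reads were assigned to genes per library.

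Neuropeptides are cut from larger precursor proteins in the secretory pathway, packed into dense-core vesicles and released to act on G protein-coupled receptors. In the ventral midbrain, cholecystokinin and neurotensin are known from subsets of dopaminergic neurons. Dynorphin and substance P reach the substantia nigra in axons of striatal projection neurons, whose cell bodies, and most of whose messenger RNA, lie in the striatum.

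All 10 dopaminergic markers, among them Th and Slc6a3, were above 0 in every library, and their summed level ran from 36829 to 57517 normalised reads. Markers of neighbouring regions were present too and varied between libraries of the same group. The summed hypothalamus list (9 genes) was 1705 in intact replicate 1 against 8933 to 16301 in all other libraries. The summed choroid plexus list (6 genes) was 49461 in intact replicate 2 and 43747 in AAV-GFP replicate 5, and at most 5754 elsewhere. Sirt3 itself averaged 1937 ± 79.4 normalised reads (SD, n = 6) with AAV-SIRT3, 1775 ± 92.4 with AAV-GFP and 1824 ± 66.3 in intact mice. The AAV-SIRT3 against AAV-GFP difference in Sirt3 was 0.13 on the log2 scale and did not pass the test (limma adjusted p = 0.183), except without AAV-GFP replicate 2 (adjusted p = 0.039). Whether transcripts of the vector were counted under Sirt3 is not stated in the sources used here.

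Several precursor genes are textbook targets of the cAMP response element-binding protein, which recognises TGACGTCA (the full element) and its half-site TGACG, read as CGTCA on the other strand. RefSeq promoters (GRCm38.p6) were found for 8 of 10 members, all but Penk and Crh, with 9 starts because Pdyn has more than 1. In the 250 bases before the start, the full element was found at 2 of the 9 member starts and in 1.55% of 32851 promoters of that length. The half-site, which every full element also contains, was found at 6 of 9 and in 17.8% of all. The stretches around these letters are printed because they show how the members' promoters differ, from a full element to a half-site. Each is 30 bases, 5′ to 3′ on the gene's strand, with the matched letters in capitals, and the number of bases is counted from the first capital to the start.
Sst (full element, 48 bases before the start, chr16:23890874-23890903, minus strand): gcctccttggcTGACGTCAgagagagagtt
Cartpt (full element, 112 bases before the start, chr13:99900777-99900806, minus strand): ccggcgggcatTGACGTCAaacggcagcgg
Vip (half-site, 79 bases before the start, chr10:5639127-5639156, plus strand): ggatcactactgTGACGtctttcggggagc
Cck (half-site, 47 bases before the start, chr9:121495724-121495753, minus strand): cctgctggactgCGTCAgcactgggtaaac
Tac1 (half-site, 43 bases before the start, chr6:7555006-7555035, plus strand): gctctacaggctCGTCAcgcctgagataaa
Nts held a half-site 166 bases before its start, Tac1 held another at 197, and neither Pdyn start nor the Npy start held the letters in this window. The stretches of Sst, Cartpt and Tac1 lie within the longer gene bounds of the GENCODE annotation. A match of letters is a description of the sequence only, and no binding was measured here.

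Compared per kilobase of annotated exon (GRCm38), somatostatin transcripts were the most abundant of the 10. Mean levels over the 18 libraries were 5407 ± 873 normalised reads per kb (SD) for Sst (chr16:23889573-23890958), 2949 ± 503 for Cartpt (chr13:99898489-99901091), 2614 ± 674 for Cck (chr9:121489824-121495694) and 2238 ± 688 for Penk (chr4:4133531-4138819). A middle tier held Npy at 869 ± 209 (chr6:49822710-49829507), Nts at 561 ± 54.3 (chr10:102481756-102490486), Tac1 at 452 ± 77.7 (chr6:7554879-7565834) and Pdyn at 418 ± 113 (chr2:129686565-129699844). The lowest were Crh at 107 ± 18.5 (chr3:19693401-19695396) and Vip at 34.6 ± 6.35 (chr10:5639218-5647617). Of the 9 neighbouring pairs in this order, the ranges over libraries were apart for Sst above Cartpt, Penk above Npy and Crh above Vip. The other neighbours overlapped; Cartpt exceeded Cck in 12 of 18 libraries, and Cck exceeded Penk in 11 of 18. Vip and Crh rested on 81 to 170 and 87 to 195 reads per library, so that counting error alone reached 11.1% and 10.7%. No other member had fewer than 228 reads in any library. Penk overlaps an antisense transcript, A830012C17Rik, which was listed at 0 to 5.19 normalised reads.

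**Figure D1:**
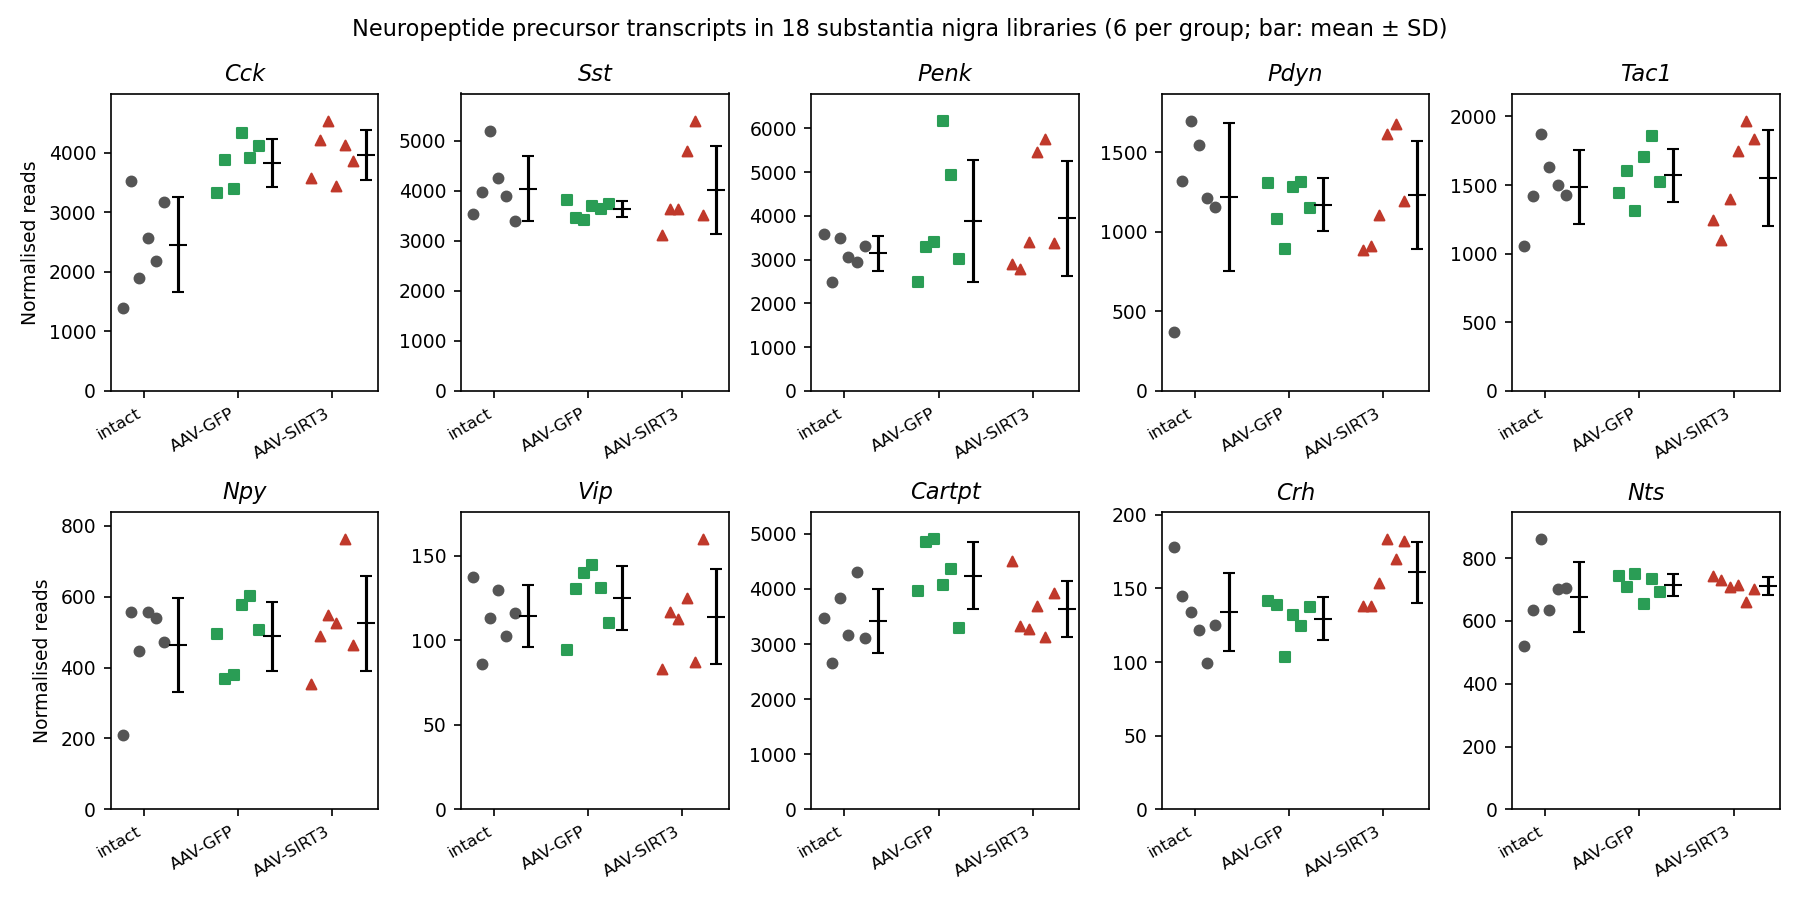
Normalised reads (y axis, linear from 0) of each of the 10 precursor genes in every library, by group (x axis); points are libraries in the order of replicate number, and bars are mean ± SD of 6. The Cck panel shows intact libraries from 1399 to 3524 and both virus groups from 3317 upward, while the Penk panel shows 4 libraries of the virus groups above all the others, from 4921 to 6176.

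With all 18 libraries and no covariate, Cck was the only member to pass the limma test. It was higher in both virus groups than in intact mice. Cck encodes cholecystokinin, a peptide made by subsets of dopaminergic neurons and by many glutamatergic neurons of the forebrain. In intact mice its lowest, median and highest values were 1399, 2374 and 3524 normalised reads. With AAV-GFP they were 3317, 3892 and 4332, and with AAV-SIRT3 3439.6, 3996 and 4538. Cck was thus high in all 12 libraries of the virus groups, and in the intact group it was spread widely, with replicate 2 alone (3524) reaching the range of the virus groups.

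The Cck mean was 2454 ± 797 in intact mice, 3821 ± 399.7 in AAV-GFP mice and 3959 ± 413 in AAV-SIRT3 mice (SD, n = 6 each). AAV-GFP exceeded intact by 0.70 on the log2 scale, 1.62-fold (SE 0.15, 95% interval 0.39 to 1.01, limma adjusted p = 0.0214 over 19443 genes), and was higher in 34 of 36 pairs of libraries. AAV-SIRT3 exceeded intact by 0.75, 1.68-fold (SE 0.15, interval 0.44 to 1.07, adjusted p = 0.00209), and was higher in 35 of 36 pairs. These comparisons share the intact libraries and are not independent. Between the virus groups the Cck difference was 0.05 (interval -0.26 to 0.37, adjusted p = 0.906). In the AAV-GFP against intact comparison 1 of 10 members passed, where 1.84% of all genes tested passed. In the AAV-SIRT3 against intact comparison 1 of 10 passed as well, where 21.7% of all genes did. With 10 members, such counts are too small to set the members apart from all genes. The median difference of the 10 members was 0.11 with AAV-GFP and 0.10 with AAV-SIRT3, against 0.001 and -0.005 for all genes tested. The Cck call for AAV-GFP against intact was lost without intact replicate 3 (0.64, limma adjusted p = 0.066) or intact replicate 5 (0.68, adjusted p = 0.0503). It was also lost when only the AAV-GFP and intact libraries were fitted (adjusted p = 0.0563).

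Cck moved together with markers of the thalamus, a region that neighbours the midbrain. In this bulk tissue, more or fewer cells of a type and more or less RNA per cell cannot be told apart. Summed over 9 thalamic markers, none at 0 in any library, the level was 46451 to 92830 normalised reads in intact libraries, 77252 to 88937 in AAV-GFP libraries and 72556 to 96148 in AAV-SIRT3 libraries. The low values were intact replicates 1, 3 and 5 at 46451, 49394 and 49717, and in these same libraries Cck was lowest, at 1399, 1887 and 2174. Of the 9 markers, 1 passed as higher in AAV-GFP than intact, 6 passed as higher in AAV-SIRT3 than intact, and 0 passed between the virus groups. Over the 18 libraries, after subtraction of group means, the log2 level of Cck correlated with the mean log2 level of these markers (Pearson r = 0.92, Spearman rho = 0.87, and r = 0.84 without the 2 libraries farthest from the median). With that thalamus score as a covariate, the Cck differences were 0.20 (AAV-GFP against intact, adjusted p = 0.321) and 0.24 (AAV-SIRT3 against intact, adjusted p = 0.0734), and neither passed. Whether the amount of thalamus in the tissue sets the Cck level was not tested.

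Of 15235 tested genes with a mean of at least 50, the genes whose within-group pattern was most like that of Cck were Gpr153 (r = 0.97), Ramp3 (0.94) and Tcf7l2 (0.94). Ramp3 and Tcf7l2 are among the 9 thalamic markers. Against the 10 dopaminergic markers the correlation of Cck was negative, r = -0.68, and -0.40 without the 2 farthest libraries. All such correlations here are over the same 18 libraries, which share their size factors and dissection, and are given as descriptions.

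**Figure D2:**
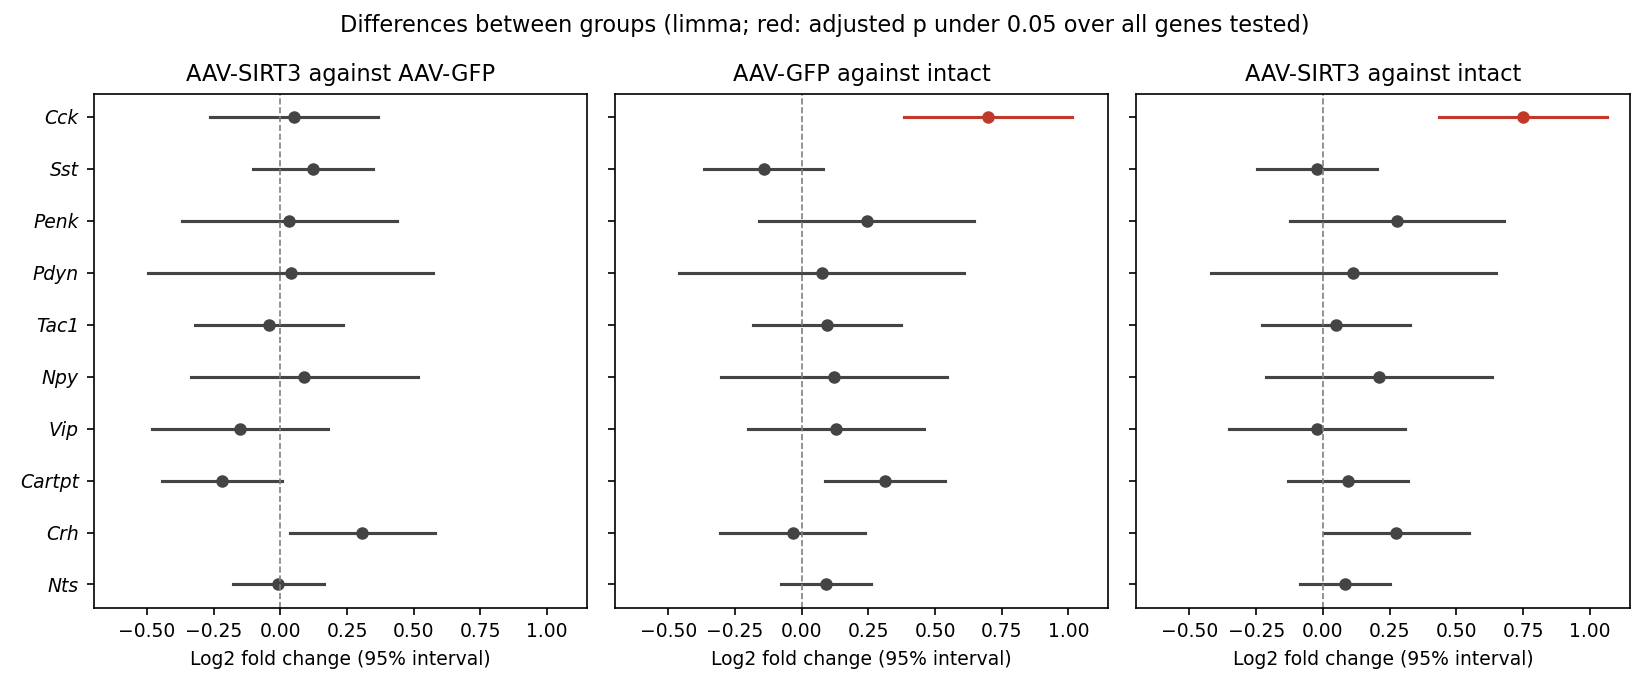
Log2 fold change (x axis) with its 95% interval for each precursor gene (y axis) in the 3 comparisons; red marks an adjusted p under 0.05 over all genes tested. Cck lies at 0.70 and 0.75 against intact, and 0 of 10 members passed between AAV-SIRT3 and AAV-GFP.

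Between AAV-SIRT3 and AAV-GFP, the comparison that holds the virus in common, 0 of 10 members passed, where 0.113% of all genes tested passed (22 genes). At an unadjusted limma p under 0.05 the count was 1 of 10, Crh, where 15.2% of all genes were under it, and edgeR and DESeq2 on recovered reads also called 0. The median difference of the 10 members was 0.04 on the log2 scale, and that of all genes tested was -0.004. The widest interval was that of Pdyn, -0.49 to 0.57, and the narrowest that of Nts, -0.18 to 0.16, so differences of up to those sizes lie within the error of these libraries.

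Crh encodes corticotropin-releasing hormone, which starts the pituitary stress response and acts as a transmitter within the brain. Its lowest, median and highest values were 138, 162 and 184 normalised reads with AAV-SIRT3, 103, 135 and 142 with AAV-GFP, and 99.3, 129.5 and 178 in intact mice. The AAV-SIRT3 libraries thus lay mostly above the AAV-GFP libraries, with an overlap between 138 and 142. AAV-SIRT3 exceeded AAV-GFP by 0.31 (SE 0.13, interval 0.04 to 0.58, limma adjusted p = 0.276), with 32 of 36 pairs higher. Against intact the AAV-SIRT3 difference was 0.27 (adjusted p = 0.138). It passed without intact replicate 1, the highest intact library for Crh (0.36, adjusted p = 0.0466).

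Cartpt encodes the CART peptides, which are known for effects on feeding and reward. Its lowest, median and highest values were 2653, 3313 and 4299 normalised reads in intact, 3290.1, 4213 and 4904 in AAV-GFP mice and 3119.9, 3510.2 and 4497 in AAV-SIRT3 mice. The AAV-GFP libraries tended to be the highest, and all groups overlapped. AAV-GFP differed from intact by 0.31 (SE 0.11, limma adjusted p = 0.118, 31 of 36 pairs higher) and AAV-SIRT3 from AAV-GFP by -0.22 (SE 0.11, adjusted p = 0.339, 7 of 36 pairs higher), and neither passed. Cartpt ran against the thalamic markers that Cck followed (r = -0.65, and -0.65 without the 2 farthest libraries), and against Cck itself (r = -0.55). It ran with the 3 markers of the subthalamic nucleus (r = 0.68, rho = 0.60, and 0.58 without the 2 farthest libraries) and with the dopaminergic markers (r = 0.54, rho = 0.54, and 0.46 without them). With the thalamus score as a covariate, Cartpt passed in both comparisons with intact, at 0.56 for AAV-GFP (adjusted p = 0.0307) and 0.35 for AAV-SIRT3 (adjusted p = 0.0478). The genes most like Cartpt were Abcc12 (r = 0.83), Ucn (0.83), the precursor of urocortin, and Ltbp1 (0.83).

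Penk encodes proenkephalin, the source of enkephalins, which act at mu and delta opioid receptors. Its values in intact mice were 2490.2 at the lowest, 3177 at the median and 3579 at the highest. With AAV-GFP they were 2481, 3343 and 6176, and with AAV-SIRT3 2793, 3391 and 5758. The high ends came from AAV-GFP replicates 4 and 5 (6176 and 4921) and AAV-SIRT3 replicates 4 and 5 (5461 and 5758), and the other 14 libraries lay at 3579 or below. Neither virus group passed against intact, at 0.24 (AAV-GFP, SE 0.19, limma adjusted p = 0.523) and 0.28 (AAV-SIRT3, SE 0.19, adjusted p = 0.324).

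The 4 libraries high in Penk were also the 4 highest in markers of striatal projection neurons, the forebrain cells in which Penk is abundant. The summed level of the 7 striatal markers was 9697, 9103, 8147 and 10123 in them, in the order just given, and 2971 to 5616 in the other 14. None of the 7 markers was at 0 in any library. The correlation of Penk with the striatal score was r = 0.84 over 18 libraries (rho = 0.77, and 0.74 without the 2 farthest). In the other 14 libraries, a subset picked after the Penk values were seen, it was 0.03. The genes most like Penk were Gpr6 (r = 0.92), itself on the striatal list, Cpne5 (0.89) and Bcl11b (0.88). The part of striatal tissue in the Penk values was not tested.

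Pdyn encodes prodynorphin, whose dynorphins act at the kappa opioid receptor. Its lowest, median and highest values were 367, 1266 and 1698 in intact mice, 893, 1215 and 1313 in AAV-GFP mice and 887, 1146 and 1677 in AAV-SIRT3 mice. Intact replicate 1, at 367, stood below all other libraries, which began at 887. The differences were 0.07 (AAV-GFP against intact) and 0.11 (AAV-SIRT3 against intact), each with SE 0.26. Without intact replicate 1 they were -0.24 and -0.20, and none of these passed (lowest limma adjusted p = 0.365).

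The marker list that Pdyn followed most closely was that of the hypothalamus and mammillary region, which borders the midbrain rostrally. The correlation was r = 0.96 (rho = 0.92, and 0.94 without the 2 farthest libraries). Of the 9 genes on that list, 4 are themselves neuropeptide precursors: Hcrt, Pmch, Avp and Oxt. With the list of other precursors followed below, which holds these 4 too, the correlation of Pdyn was also 0.96 (rho = 0.87, and 0.88 without the 2 farthest). The part of these 4 genes in the correlations with the hypothalamic score was not tested. Intact replicate 1 was the lowest library both in Pdyn and in the hypothalamic sum. AAV-SIRT3 replicate 5 and intact replicate 3, the highest in Pdyn at 1677 and 1698, had the highest hypothalamic sums, 15067 and 16301. The genes most like Pdyn were Dlx1 (r = 0.94), Hpcal4 (0.94) and C130093G08Rik (0.93).

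Tac1 encodes the precursor of substance P and neurokinin A. Its lowest, median and highest values were 1058, 1463 and 1869 in intact mice, 1313, 1559.9 and 1853 in AAV-GFP mice and 1101, 1572 and 1969.6 in AAV-SIRT3 mice, with all groups overlapping. The differences against intact were 0.09 (AAV-GFP) and 0.05 (AAV-SIRT3), each with SE 0.13, and neither passed (limma adjusted p = 0.753 and 0.822). Across libraries Tac1 ran with Pdyn (r = 0.81, and 0.80 without the 2 farthest libraries), the other precursor of the direct striatal pathway. Its correlation with the hypothalamic score (r = 0.68) was above that with the striatal score (r = 0.49), a difference that was not tested. Most like it were Crabp1 (r = 0.94), Rxrg (0.89) and Drc1 (0.87).

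**Figure D3:**
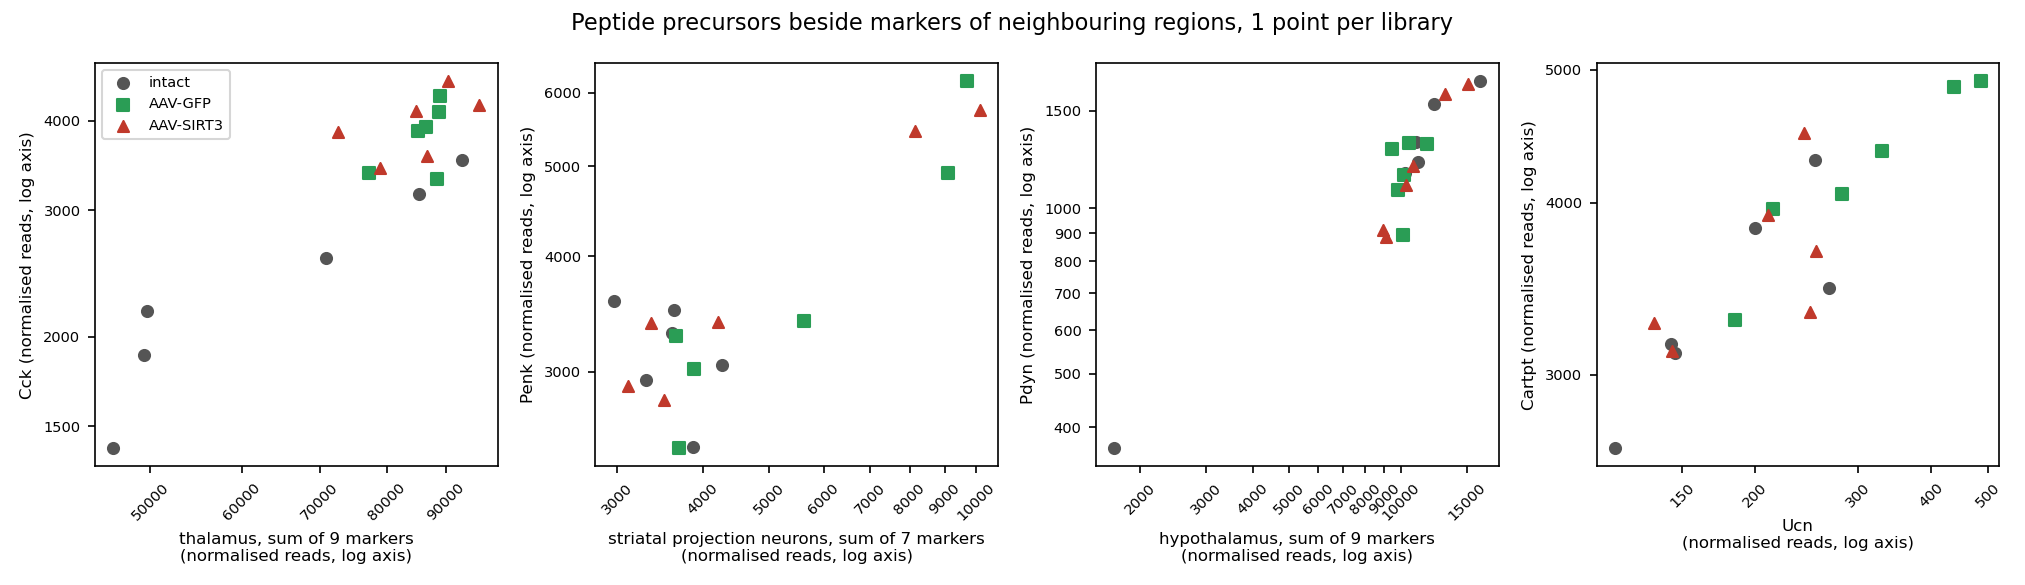
Each point is a library, coloured by group, with log axes in normalised reads: Cck against the sum of 9 thalamic markers, Penk against the sum of 7 striatal markers, Pdyn against the sum of 9 hypothalamic markers, and Cartpt against Ucn. The Penk panel shows 4 libraries apart at striatal sums of 8147 to 10123, and the Pdyn panel shows intact replicate 1 alone at 367 and 1705.

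Npy encodes neuropeptide Y, a peptide of forebrain interneurons and of hypothalamic neurons that drive feeding. Its lowest, median and highest values were 209, 506 and 557 in intact mice, 367, 500.4 and 603 in AAV-GFP mice and 354, 507 and 762 in AAV-SIRT3 mice. Medians were close, and the lowest value was again that of intact replicate 1. AAV-SIRT3 differed from intact by 0.21 (SE 0.20, limma adjusted p = 0.491), and by -0.003 without that library. Npy ran with Pdyn (r = 0.85, and 0.61 without the 2 farthest libraries) and with the hypothalamic score (r = 0.87, and 0.66 without them). Most like it were Dbpht2 (r = 0.94), Camkv (0.93) and Camk2a (0.93), the last a kinase abundant in forebrain excitatory neurons.

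Sst encodes somatostatin, an inhibitory peptide of interneurons and of hypothalamic neurons that restrain growth hormone release. Its lowest, median and highest values were 3388, 3939.6 and 5199 in intact mice, 3423, 3665 and 3825 in AAV-GFP mice and 3118, 3642 and 5407 in AAV-SIRT3 mice. The AAV-GFP libraries lay close together (SD 158), while intact (SD 646) and AAV-SIRT3 (SD 881) had high libraries. These were intact replicate 3 at 5199 and AAV-SIRT3 replicate 5 at 5407, which were also the highest in Pdyn. No comparison passed, with differences of -0.14 (AAV-GFP against intact), -0.02 (AAV-SIRT3 against intact) and 0.12 (AAV-SIRT3 against AAV-GFP), each with SE 0.11. Sst was most like Ngfr (r = 0.93), Rab3b (0.91) and Fbxo16 (0.84), and its correlation with the interneuron score was 0.68 (rho = 0.70, and 0.59 without the 2 farthest libraries). With the hypothalamic score it was 0.63 (rho = 0.85, and 0.81 without them).

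Nts encodes neurotensin, a modulator of dopamine signalling. Its means were 677 ± 112 in intact mice, 714 ± 35.4 in AAV-GFP mice and 709.9 ± 28.4 in AAV-SIRT3 mice, and the values of both virus groups lay within the intact range of 522 to 861. The differences against intact were 0.09 (AAV-GFP) and 0.08 (AAV-SIRT3), each with SE 0.08, and neither passed. Its most similar genes, Spcs2 (r = 0.83), Cyp4f14 (0.78) and Zfp57 (0.78), rested on 2 libraries: without the 2 farthest, r was 0.46, 0.49 and 0.10.

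Vip encodes vasoactive intestinal peptide, a peptide of cortical interneurons and of the circadian clock neurons. Its means were 114 ± 18.4 in intact mice, 125 ± 19.2 in AAV-GFP mice and 114 ± 28 in AAV-SIRT3 mice, and all groups overlapped. No comparison passed, and the interval between the virus groups ran from -0.48 to 0.18. Vip was most like Blvra (r = 0.79), Man1c1 (0.78) and Entpd3 (0.77), and those most like Crh were Wdfy4 (0.78), Cbr4 (0.77) and Chst7 (0.76).

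Several members varied more within groups than most genes did. Among 15245 genes with a mean of at least 50, the median within-group SD on the log2 scale was 0.12. That of Pdyn was 0.53, at percentile 98.4, that of Npy 0.41, at 96.2, that of Penk 0.40, at 95.7, and that of Cck 0.31, at 90.1. Nts, at 0.15 and percentile 64.3, was the steadiest member. For the low genes Crh and Vip, the SDs of 0.22 and 0.28 lay near the medians of 0.26 and 0.27 of genes with similar means. Against genes with similar means, the percentiles were 99.6 for Penk, 99.5 for Pdyn, 99.1 for Cck and 97.2 for Npy. They were 98.1 for Sst and Cartpt, 97.9 for Tac1 and 69.9 for Nts. Group membership accounted for 59.3% of the variance of Cck on the log2 scale and for 0.948% of that of Pdyn. The median of this share over the 15245 genes was 23.6%.

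Of the 45 pairs of members, 9 had r above 0.5 over the 18 libraries after subtraction of group means, and 5 of these stayed above 0.5 without the 2 farthest libraries. The 5 were Pdyn with Npy, Pdyn with Tac1, Pdyn with Sst, Tac1 with Npy, and Sst with Npy. The pairs below -0.5 were Cck with Cartpt and Crh with Nts (r = -0.50), and the latter was -0.22 without the 2 farthest libraries. The members thus did not vary as 1 block: Sst, Pdyn, Tac1 and Npy ran together, and Cck and Cartpt ran in opposite directions. Vip, Crh and Cartpt had no r above 0.5 with any other member. Vip with Penk had r = 0.33, and 0.52 without the 2 farthest libraries.

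**Figure D4:**
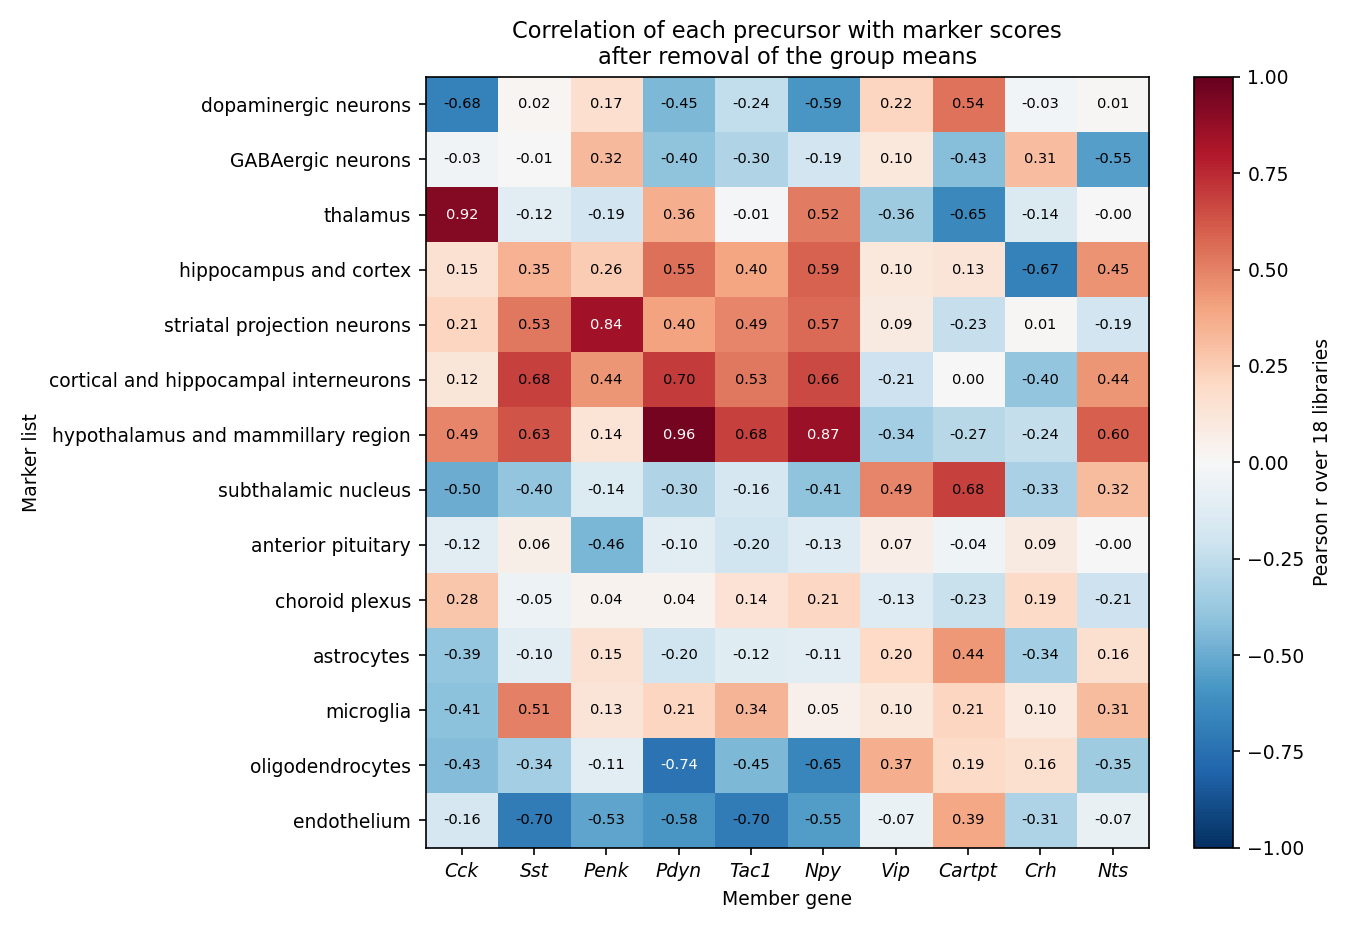
Pearson r over 18 libraries, after subtraction of group means, between each precursor gene (columns) and the mean log2 level of each marker list (marker lists in lines, colour scale from -1 to 1). The highest value of Cck is with the thalamus (0.92), of Penk with striatal projection neurons (0.84) and of Pdyn with the hypothalamus and mammillary region (0.96).

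The machinery around the peptides was followed in 4 lists: receptors of the members, processing enzymes and dense-core vesicle proteins, degrading peptidases, and other precursors. Between AAV-SIRT3 and AAV-GFP, 0 of 24 receptors, 0 of 19 processing genes, 0 of 12 peptidases and 0 of 21 other precursors passed the limma test, where 0.113% of all genes did. At an unadjusted limma p under 0.05 the counts were 3, 4, 0 and 2 in the same order, where 15.2% of all genes were under it. On recovered reads, edgeR and DESeq2 called 0 in each list. Thalamic markers were higher in AAV-SIRT3 than in intact libraries, as given above for Cck, and their part in the list results below was not tested except where a value with the thalamus score is given. Against intact, 1.84% of all genes passed with AAV-GFP and 21.7% with AAV-SIRT3, with median log2 differences of 0.001 and -0.005. The list medians with AAV-GFP were -0.15 for receptors, 0.02 for processing genes, -0.02 for peptidases and -0.09 for other precursors. With AAV-SIRT3 they were -0.06, -0.03, -0.13 and -0.04 in the same order.

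Among receptors, the mu opioid receptor transcript fell in both virus groups and the delta opioid receptor transcript with AAV-SIRT3. Oprm1, the mu opioid receptor, averaged 334 ± 36.2 normalised reads in intact, 211 ± 61.6 in AAV-GFP mice and 190.2 ± 26.8 in AAV-SIRT3 mice, and all AAV-SIRT3 libraries (168 to 238) lay below all intact libraries (277 to 377). Oprm1 fell by 0.81 with AAV-SIRT3 (limma adjusted p = 0.00244), a call kept with the thalamus score as a covariate (-0.81, adjusted p = 0.0273) and without any 1 library. It fell by 0.72 with AAV-GFP (adjusted p = 0.0331), a call lost without intact replicate 1, 3 or 4 or AAV-GFP replicate 3 (adjusted p up to 0.0787) and with the thalamus score (adjusted p = 0.213). That call was also lost without the filter on low values, with only the AAV-GFP and intact libraries fitted, and with the hippocampus and cortex or the GABAergic score. Against intact, 7 of 24 receptors passed with AAV-SIRT3 (5 lower, 2 higher) and 1 of 24 with AAV-GFP. DESeq2 called 4 of 24 with AAV-GFP, and it called 1008 of all genes in that comparison where limma called 358. Oprd1, the delta opioid receptor, fell by 0.62 with AAV-SIRT3 (adjusted p = 0.013), and did not pass with the thalamus score (-0.34, adjusted p = 0.284). Sstr4, a somatostatin receptor, fell by 0.73 (adjusted p = 0.0213), a call lost without AAV-SIRT3 replicate 2 or 3 (adjusted p up to 0.0539). Vipr2, a receptor for vasoactive intestinal peptide, was 0.59 higher (adjusted p = 0.0358) but -0.09 with the thalamus score, and its call was lost in 6 of 18 fits that each left out 1 library (adjusted p up to 0.0948), namely without intact replicate 1, 3 or 5 or AAV-SIRT3 replicate 2, 3 or 5.

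Processing genes moved in both directions. Cpe, carboxypeptidase E, which trims basic residues from peptide intermediates, averaged 112570 ± 6969 in intact mice, 138132 ± 5513 in AAV-GFP mice and 133315 ± 5099.8 in AAV-SIRT3 mice, with every virus library above every intact library. It rose by 0.30 with AAV-GFP (limma adjusted p = 0.00297) and by 0.25 with AAV-SIRT3 (adjusted p = 0.0014). Both calls held without any 1 library, and with the thalamus score the differences were 0.21 (adjusted p = 0.106) and 0.16 (adjusted p = 0.0563). Against intact, 7 of 19 processing genes passed with AAV-SIRT3, 4 higher and 3 lower, and 2 of 19 with AAV-GFP. DESeq2, with its 1008 calls among all genes against 358 by limma, called 5 of 19 with AAV-GFP. Pcsk1, the prohormone convertase that makes the first cuts in many precursors, fell by 0.27 with AAV-SIRT3 (adjusted p = 0.0117), and did not pass with the thalamus score (-0.19, adjusted p = 0.176). Cadps2, a priming factor for dense-core vesicle release, fell by 0.24 with AAV-SIRT3 (adjusted p = 0.0145) and by 0.29 with AAV-GFP (adjusted p = 0.0298). The latter call was lost without intact replicate 3 or 4 or any of AAV-GFP replicates 2 to 5 (adjusted p up to 0.0807). Pcsk1n, which encodes an inhibitor of that convertase, was 0.28 higher with AAV-SIRT3 (adjusted p = 0.0251), a call lost without intact replicate 4, 5 or 6 or AAV-SIRT3 replicate 3 or 6 (adjusted p up to 0.0642).

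The peptidases that passed were all lower against intact, 3 of 12 with AAV-SIRT3 and 1 of 12 with AAV-GFP. Of all genes tested, 21.7% and 1.84% passed in these comparisons, and 52.3% and 44.7% of those were higher than in intact. Ece1, endothelin-converting enzyme, fell by 0.21 with AAV-SIRT3 (limma adjusted p = 0.00184), and by 0.26 with the thalamus score (adjusted p = 0.00957). With AAV-GFP it fell by 0.18 (adjusted p = 0.03), a call lost without intact replicate 4 or 5 or AAV-GFP replicate 2 or 3 (adjusted p up to 0.0705). Ace, angiotensin-converting enzyme, fell by 0.36 (adjusted p = 0.0113) and Lnpep, an aminopeptidase that cleaves oxytocin and vasopressin, by 0.24 (adjusted p = 0.00823) with AAV-SIRT3. Neither passed with the thalamus score (adjusted p = 0.074 and 0.0834). Endothelial markers moved with these genes in the same comparison: of 4 markers, Cldn5 fell by 0.42 (adjusted p = 0.0237) and Pecam1 by 0.35 (adjusted p = 0.047), while Cdh5 (-0.31) and Flt1 (-0.19) did not pass. Their summed level was 4382 to 6024 normalised reads in intact libraries, 4696 to 6156 with AAV-GFP and 3479 to 5593 with AAV-SIRT3, and none was at 0 in any library. With AAV-GFP against intact the differences of the 4 ran from -0.05 to 0.14. Choroid plexus markers were lower too with AAV-SIRT3 against intact: 2 of 6 passed and 4 did not. Their median log2 difference was -1.41, against -0.33 for the endothelial markers. The part of the endothelium or the choroid plexus in the peptidase results was not tested.

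Of the other precursors tested, 4 of 21 passed with AAV-SIRT3 against intact and 1 of 21 with AAV-GFP. Pomc, the precursor of corticotropin and beta-endorphin, averaged 1215 ± 1292 in intact mice, with a range from 197 to 3680.4, 169 ± 152 in AAV-GFP mice and 197 ± 193 in AAV-SIRT3 mice. It fell by 2.65 with AAV-GFP (limma adjusted p = 0.0463), a call lost in 12 of 18 fits that each left out 1 library (adjusted p up to 0.108), namely those without any 1 of intact replicates 2 to 5, AAV-GFP replicates 2 to 6 or AAV-SIRT3 replicates 2, 3 and 5. It fell by 2.61 with AAV-SIRT3 (adjusted p = 0.00949), a call kept in all 18 but lost with the GABAergic score as a covariate (-1.99, adjusted p = 0.0571). Pomc is abundant in the pituitary, and the summed level of 7 pituitary markers moved with it. That sum was 309 to 3009 in intact libraries, 173 to 567 in AAV-GFP libraries and 209 to 644 in AAV-SIRT3 libraries. Of the 5 markers tested, Prl, Gh and Cga passed as lower in both comparisons with intact. Tshb and Lhb passed in neither, at -0.10 and 0.20 with AAV-GFP. Mean Cga was 31.7 normalised reads for the intact group, 3.09 for AAV-GFP and 1.03 for AAV-SIRT3. The filter value was 10, so Cga may have been tested because of its high intact values. The highest difference of a tested marker with AAV-SIRT3 was 0.43. The part of pituitary tissue in the Pomc values was not tested. Cort, encoding the somatostatin-related cortistatin, fell by 2.16 with AAV-SIRT3 (adjusted p = 0.00826) from a low level of 21.2 ± 8.7 to 4.22 ± 2.8 normalised reads. With AAV-GFP its mean was 6.70, and the difference from intact was -1.84 (limma adjusted p = 0.0756), which did not pass. Only the intact mean lay above 10, the value of the filter, so Cort may have entered the test through the group where it was high. Adcyap1, encoding PACAP, fell by 0.22 (adjusted p = 0.0105), and did not pass with the thalamus score (-0.15, adjusted p = 0.176). Grp, encoding gastrin-releasing peptide, was 0.32 higher (adjusted p = 0.0335), a call lost without any 1 of intact replicates 1 to 3 or AAV-SIRT3 replicates 1, 2, 4 and 6 (adjusted p up to 0.0809). With the thalamus score, the AAV-SIRT3 calls of Sstr4, Cadps2 and Grp against intact were lost too, as were the AAV-GFP calls of Pomc, Cadps2 and Ece1. These AAV-GFP calls were also lost without the filter on low values and with the hippocampus and cortex or the GABAergic score. With the GABAergic score, the AAV-SIRT3 calls of Adcyap1, Sstr4, Vipr2, Pcsk1n and Grp were lost as well. Vipr2 did not pass by edgeR or DESeq2 either, and Pcsk1n did not pass with quantile normalisation. With the hippocampus and cortex score the AAV-SIRT3 calls of Vipr2 and Pcsk1n were lost, and with the striatal score those of Vipr2 and Grp. Without the filter on low values Vipr2 and Grp did not pass, nor did Vipr2 with only the AAV-SIRT3 and intact libraries fitted.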

How the data were processed

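The deposited table holds a gene-level signal: read counts divided by a DESeq2 size factor by the authors, per the name of the deposited table, with HISAT2 2.1.0, DESeq2 1.34.0 and mm10 named in the submitters' processing notes. The annotation and strand setting of the counting are not given in the sources used here. Whole reads were recovered (tolerance 1e-06) for 100% of values once columns were multiplied by their size factors. Depth was 47182529 to 64728587 assigned reads per library, and since no molecular identifiers were used, the counting errors given cover counting alone. Groups and replicate numbers came from sample titles, and 0 columns were left unmatched.

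The 19443 genes reaching 10 normalised reads in 6 or more of 18 libraries, all 10 members among them, were tested with limma 3.58.1 (trend) in R 4.3.3 on log2(value + 1), 1 model for 3 groups with 15 residual degrees of freedom, with Benjamini-Hochberg adjustment over all of them and a threshold of 0.05. Fold changes are on that scale and understate those of low genes. The script was tested on simulated data. Marker scores are mean log2 values of a list. edgeR 4.0.16 and DESeq2 1.42.0 on recovered reads, pseudocounts of 0.5 and 10, other filters, scalings, covariates and leaving out each library were alternatives. The GABAergic and striatal covariates were added after seeing the data. For each member the 3 most correlated genes, and for each pathway list and comparison up to 4 passing genes with the largest change, are named. Members, lists and tests were chosen with earlier results of these data known. Coordinates are from GENCODE on GRCm38 and promoters from RefSeq on GRCm38.p6.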

Additional observations from a re-analysis of the deposited data

Results flagged for a closer look

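Npy in intact replicate 1, at 209 normalised reads, stood apart from the other intact libraries: its gap to the next value, 445, was 0.681 of the group's range, above Dixon's 95% critical value for 6 samples. It was the only one of 30 groups of member values (10 genes in 3 groups) to do so, and chance gives about 1 in 20, or 1.5.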

How the results depend on the processing

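Of 960 member values recomputed under the alternatives, 892 kept direction and side of the threshold, 58 changed sign, 7 lost and 3 gained a call. The values that changed sign had main differences of at most 0.24. The Cck call with AAV-SIRT3 against intact was lost only with the thalamus score as covariate.

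For AAV-SIRT3 against AAV-GFP the number of genes called was 310 with DESeq2, 8 with only those groups and 1 with the GABAergic score. For AAV-GFP against intact it was 164 without the filter on low values, 1008 with DESeq2, 199 with only those groups (0 members), 37 with the thalamus, 160 with the hippocampus and cortex and 47 with the GABAergic score (0 members), and the striatal score also left 0 members. For AAV-SIRT3 against intact it was 1789 with the thalamus score. Leaving out each library gave 5 to 861, 129 to 686 and 3279 to 4633 genes in the same order, with 0, 0 to 1 and 1 to 2 members. The replicate numbers of the titles did not pair the libraries (correlations of same-numbered deviations -0.10 to 0.18, 1 of 18 best with its own number), and with the replicate block AAV-SIRT3 against AAV-GFP gave 13 genes, no member call changed and the AAV-GFP call of Pomc was lost.

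Signs changed as follows, on the log2 scale. Vip was 0.046 (AAV-SIRT3 against intact) with quantile normalisation. For AAV-GFP against intact, Pdyn was -0.054 with edgeR and -0.055 with DESeq2. With the thalamus score, AAV-GFP against intact gave Pdyn -0.26, Npy -0.25 and Crh 0.022, and AAV-SIRT3 against intact gave Sst 0.024, Pdyn -0.23, Npy -0.17, Vip 0.16 and Vipr2 -0.093. With the hippocampus and cortex score, Pdyn was -0.0060 between the virus groups and Sst 0.024 for AAV-SIRT3 against intact. With the GABAergic score, Penk was -0.26, Tac1 0.14 and Nts 0.17 between the virus groups, and Pdyn -0.17, Crh 0.043 and Nts -0.00014 for AAV-GFP against intact. With the striatal score, Penk was -0.091, Pdyn -0.14, Tac1 -0.038 and Npy -0.11 for AAV-GFP against intact, and Pdyn -0.047 and Tac1 -0.049 for AAV-SIRT3 against intact. The cause was not tested in any of these.

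Leaving out each library in turn changed signs within these ranges. Between the virus groups they were Penk -0.088 to 0.18, Nts -0.032 to 0.013, Pdyn -0.059 to 0.12, Tac1 -0.12 to 0.049 and Npy -0.025 to 0.20. For AAV-GFP against intact they were Pdyn -0.24 to 0.20, Npy -0.094 to 0.20 and Crh -0.11 to 0.054. For AAV-SIRT3 against intact they were Pdyn -0.20 to 0.24, Tac1 -0.043 to 0.14, Npy -0.0035 to 0.32, Vip -0.12 to 0.063 and Sst -0.11 to 0.054. TMM and quantile scaling shifted the median of all genes by at most 0.008. Depth limits Vip and Crh, with fewer than 200 reads in each library.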

Other observations

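Avp and Oxt, the vasopressin and oxytocin precursors, are made by hypothalamic neurons and differed widely between libraries of 1 group. Avp ran from 8.2 to 2079.9 normalised reads in intact, from 42.9 to 880.0 in AAV-GFP and from 81.0 to 1600.3 in AAV-SIRT3 libraries. Oxt ran from 5.5 to 1907 in intact, from 15.5 to 765 in AAV-GFP and from 64.1 to 2562 in AAV-SIRT3 libraries. Neither passed the limma test in any of the 3 comparisons.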
